A study of Mus musculus with 2 samples.

Results

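Tubulin isotypes are the products of a family of related genes that build microtubules, and 10 of them are described here in the mouse hindbrain at embryonic day 12.5. They are the 3 alpha-tubulin genes Tuba1a, Tuba1b and Tuba1c, the 6 beta-tubulin genes Tubb2a, Tubb2b, Tubb3, Tubb4b, Tubb5 and Tubb6, and the gamma-tubulin gene Tubg1. They were chosen by gene name, with no measured value in the rule, though earlier results of these data were known. All 10 were found among the 55536 genes measured, of which 22028 were protein coding. The samples were polyA-selected RNA-seq libraries from healthy tissue of strain B6NCrl, in 1 group of 2 replicates. Pool 1 was made from the hindbrains of 120 embryos and pool 2 from those of 88 embryos, both of mixed sex. No treatment, mutant or second stage was measured, so there was no contrast between conditions and no test could be made. Expression is given as TPM, a level scaled for transcript length and for depth, as mean ± SD over both pools (n = 2) unless a pool is named.

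A microtubule is a hollow polymer of alpha- and beta-tubulin heterodimers, and gamma-tubulin, in a ring complex, starts its growth at centrosomes and along other microtubules. Within the alpha and within the beta class, the isotypes have closely similar folded cores and a short acidic tail at the C terminus, which varies among many of them. The tail is the site of added glutamate and glycine chains and, in most alpha-tubulins, of the removal and return of the last tyrosine. Embryonic hindbrain holds dividing progenitors, which use microtubules for the spindle and the apical process, beside young neurons, which use them for migration and axon growth. Tuba1a, Tubb2b and Tubb3 are known from human brain malformations. Cells also sense free tubulin dimers and destroy tubulin mRNA while it is being translated, a feedback in which the protein TTC5 binds the first residues of the new chain.

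The coding ends of 5 beta genes and of Tubg1 are shown because, in the beta genes, they hold the tail that other proteins modify and that varies among many of the isotypes. Each is the last 20 sense codons and the stop codon on the sense strand, 5′ to 3′, from the transcripts of the GENCODE M21 annotation (mm10), with every in-frame glutamate codon (GAA or GAG) in capitals.
Tubb2a: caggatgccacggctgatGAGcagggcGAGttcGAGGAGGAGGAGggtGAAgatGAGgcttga
Tubb2b: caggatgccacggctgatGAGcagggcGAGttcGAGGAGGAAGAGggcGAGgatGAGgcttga
Tubb3: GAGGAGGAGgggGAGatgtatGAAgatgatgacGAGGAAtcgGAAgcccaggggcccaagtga
Tubb4b: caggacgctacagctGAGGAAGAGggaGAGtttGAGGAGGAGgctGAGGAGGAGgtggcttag
Tubb5: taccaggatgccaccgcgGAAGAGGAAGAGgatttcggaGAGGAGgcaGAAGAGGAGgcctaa
Tubg1: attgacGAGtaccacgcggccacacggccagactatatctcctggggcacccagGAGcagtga

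The beta genes had between 8 and 10 (Tubb4b) glutamate codons among these 20, and Tubg1 had 2. The ends of Tubb2a and Tubb2b differed at 3 of 63 bases. Those of Tubb2a and Tubb3 differed at 36 of 63 when laid side by side without gaps. Over whole coding regions, base identity was 97.1% to 98.3% among the alpha genes, and 80.1% to 96.5% among the beta genes, with Tubb2a and Tubb2b the closest beta pair. Between an alpha and a beta gene it was 54.0% to 56.3%. All coding regions were between 444 and 451 codons long.

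The coding starts of the alpha and beta genes hold the first residues that TTC5 reads. They are shown with the fourth codon in capitals, beside that of Tubg1 for comparison. It separated the 3 classes.
Tuba1a: atgcgtgagTGC
Tuba1b: atgcgtgagTGC
Tuba1c: atgcgtgagTGC
Tubb2a: atgcgcgagATC
Tubb2b: atgcgagagATC
Tubb3: atgagggagATC
Tubb4b: atgagggagATC
Tubb5: atgagggaaATC
Tubg1: atgccgagaGAA

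All 10 genes were expressed in both pools. Of the 10, 7 stood at 100 TPM or more in both pools, against 7.14% of protein-coding genes. All 10 reached 1 TPM, against 61.8% of protein-coding genes. These counts hold for the chosen genes only. Of the 10 other protein-coding tubulin genes, described below, 6 reached 1 TPM in both pools. Together they held 1.17% of all TPM (11715 TPM in pool 1 and 11730 TPM in pool 2) and 1.31% ± 0.0077 of the counts on genes. The labelled tissue matched its markers: the 4 hindbrain genes Hoxa2, Hoxb2, Hoxd3 and Gbx2 averaged 42.2 to 59.0 TPM, and the 3 forebrain genes Emx1, Six3 and Six6 averaged 0.435 TPM or less. Expected counts on genes summed to 31469575 for pool 1 and to 29261472 for pool 2. Since cDNA was amplified and no molecular barcodes are mentioned, the counting intervals used below (95%, exact Poisson) cover counting error only. In whole tissue, fewer cells of a type and less RNA per cell cannot be told apart.

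**Figure D1:**
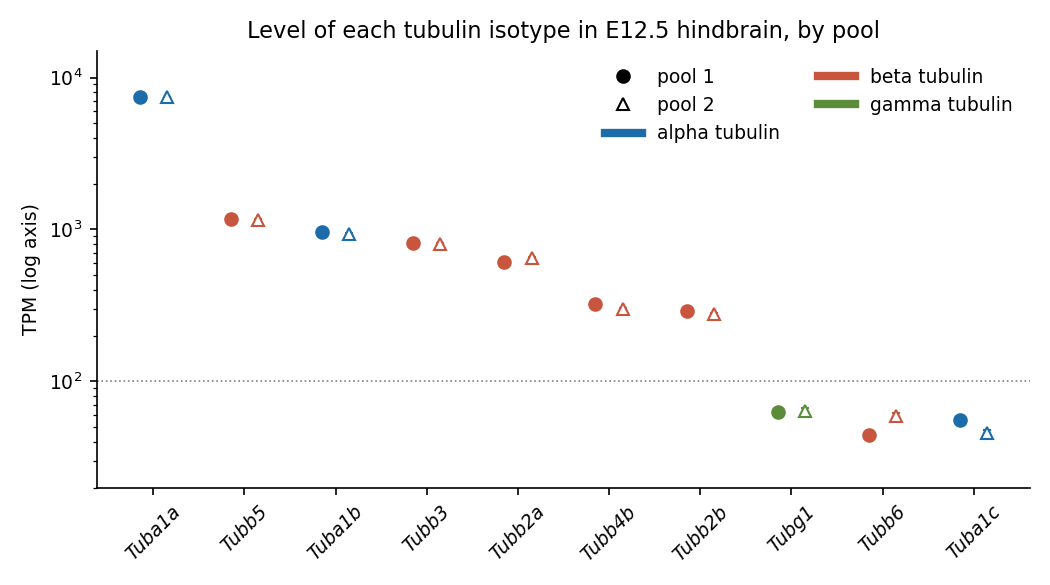
TPM of each tubulin gene on a log axis, ordered by mean, with pool 1 as filled circles and pool 2 as open triangles; bars, mostly smaller than the symbols, are 95% counting intervals and the dotted line marks 100 TPM. Tuba1a stands above all the others, 7 genes lie over the line in both pools, and Tubb6 and Tuba1c change places between the pools.

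Among the alpha genes, Tuba1a was far above the others. Tuba1a is the main alpha-tubulin of young neurons (chromosome 15, 98949837 to 98953703, minus strand, mm10). It had 7393 TPM in pool 1 and 7439 TPM in pool 2, from 251636 and 233390 expected counts. It was the third most abundant protein-coding transcript in pool 1 and the second in pool 2. The counting intervals of the pools overlapped.

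Tuba1b, an alpha-tubulin made in most dividing cells, lies 15271 bases from Tuba1a on the same strand (98931425 to 98934565). It had 962.5 TPM in pool 1 and 935.6 TPM in pool 2, ranks 64 and 62. Tuba1c, another broadly made alpha-tubulin, lies on the opposite strand 76187 bases beyond Tuba1a (99029891 to 99038110). It had 56.1 TPM in pool 1 and 45.7 TPM in pool 2, and its mean was the lowest of the 10 genes. In TPM, Tuba1a exceeded Tuba1b 7.82 ± 0.191 times. Of the summed TPM of the 3 genes, Tuba1a held 88.1% ± 0.322, Tuba1b 11.3% ± 0.235 and Tuba1c 0.605% ± 0.0876.

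The beta genes were more evenly spread, with 4 of the 6 above 300 TPM on average. Tubb5, a beta-tubulin of nearly all cell types (chromosome 17, 35833921 to 35838306, minus strand), was the highest, with 1165 TPM in pool 1 and 1160 TPM in pool 2. Tubb3, the beta-tubulin used as a marker of neurons (chromosome 8, 123411424 to 123422015, plus strand), followed with 812.8 TPM in pool 1 and 800.6 TPM in pool 2. For both genes the counting intervals of the pools overlapped. Tubb5 exceeded Tubb3 1.44 ± 0.0105 times in TPM, and 2.05 ± 0.0164 times in expected counts, where the longer Tubb5 transcript (2649 bases, against 1868 for Tubb3) is not scaled out.

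Tubb2a and Tubb2b, a neighbouring pair known from neurons, lie 48740 bases apart on the minus strand of chromosome 13 (34074274 to 34078007 and 34126748 to 34130466). Tubb2a had 607.5 TPM in pool 1 and 648.6 TPM in pool 2. Tubb2b had 288.8 TPM in pool 1 and 278.4 TPM in pool 2. Tubb2a was the higher of the pair in each pool, 2.22 ± 0.160 times in TPM and 1.61 ± 0.113 times in expected counts.

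Tubb4b, a beta-tubulin of many tissues including ciliated cells (chromosome 2, 25222160 to 25224702, minus strand), had 322.2 TPM in pool 1 and 299.8 TPM in pool 2. Tubb6, a beta-tubulin made widely at low levels outside the brain (chromosome 18, 67390717 to 67402749, plus strand), had 44.4 TPM in pool 1 and 59.1 TPM in pool 2. It was the lowest of the 6 beta genes in both pools. No sequence of Tubb6 is shown.

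Of the summed TPM of the 6 beta genes, Tubb5 held 35.8% ± 0.163, Tubb3 24.9% ± 0.294 and Tubb2a 19.4% ± 0.874. Tubb4b held 9.59% ± 0.50, Tubb2b 8.74% ± 0.236 and Tubb6 1.60% ± 0.318. Of these 6, the genes known from neurons, Tubb2a, Tubb2b and Tubb3, came to 53.0% ± 0.344 of beta TPM. By expected counts, which are not scaled for length, their shares were 14.7% (Tubb2a), 9.14% (Tubb2b) and 22.2% (Tubb3). Tubb4a, described below, is not in these sums. The summed alpha level was 8411 TPM in pool 1 and 8420 TPM in pool 2, and the summed beta level 3241 TPM in pool 1 and 3246 TPM in pool 2. Thus the alpha sum was 2.59 ± 0.00103 times the beta sum, and Tuba1a by itself was 2.29 ± 0.00745 times all 6 beta genes together. With every protein-coding alpha and beta gene included, the ratio was 2.47 ± 0.0116. These are ratios of mRNA levels and not of protein.

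**Figure D2:**
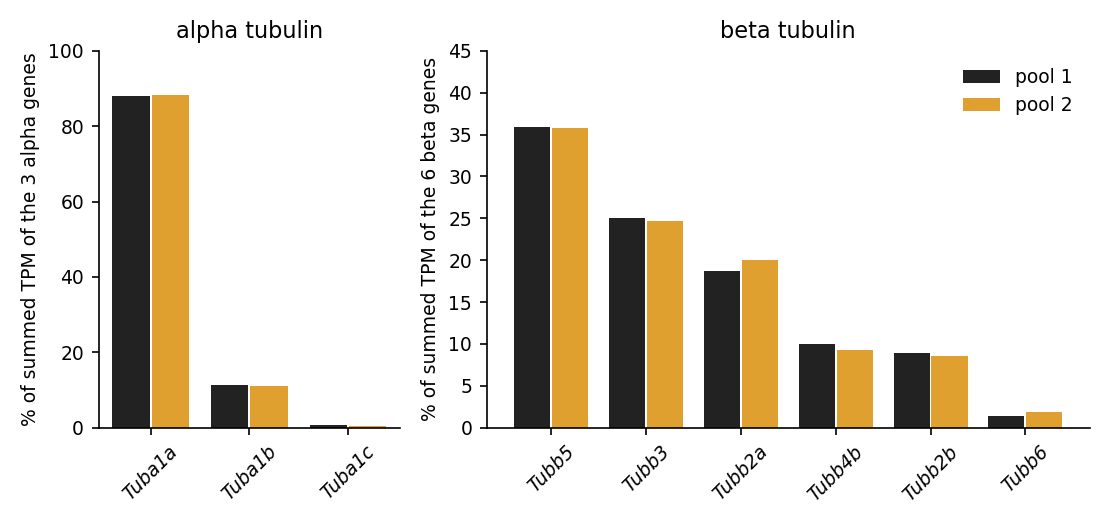
Share of each gene in the summed TPM of the 3 alpha genes (left) and of the 6 beta genes (right), in percent, with pool 1 as dark bars and pool 2 as light bars. Tuba1a takes 87.9% in pool 1 and 88.3% in pool 2, while the highest beta gene, Tubb5, takes 36.0% in pool 1 and 35.7% in pool 2.

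Tubg1 encodes the gamma-tubulin that most cells use to start microtubules (chromosome 11, 101119938 to 101126419, plus strand). It had 63.2 TPM in pool 1 and 63.9 TPM in pool 2, and its counting intervals overlapped. Its neighbour and close relative Tubg2, 29487 bases away on the same strand, had 8.02 TPM in pool 1 and 9.88 TPM in pool 2. Tubg1 was thus 7.17 ± 1.00 times Tubg2. The summed alpha level was 132 ± 0.908 times that of Tubg1.

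In the order of mean TPM (Tuba1a, Tubb5, Tuba1b, Tubb3, Tubb2a, Tubb4b, Tubb2b, Tubg1, Tubb6, Tuba1c), the pools of 8 of the 9 neighbouring pairs did not overlap. The step from Tuba1a to Tubb5 was 6.38-fold, and that from Tubb2b to Tubg1 was 4.46-fold. Tubb6 and Tuba1c could not be ordered: Tubb6 had 44.4 and 59.1 TPM, and Tuba1c 56.1 and 45.7 TPM, in pools 1 and 2. Tubb4b and Tubb2b were close, with means 1.10-fold apart, and their order depended on the annotation: on M21 Tubb4b averaged 311 ± 15.9 TPM and Tubb2b 284 ± 7.34 TPM, and on the older M4 Tubb4b averaged 327 ± 16.8 TPM and Tubb2b 354 ± 7.77 TPM.

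The other protein-coding tubulin genes were lower, with 1 exception. Of 10 such genes, 6 reached 1 TPM in both pools. Tubb4a, a beta-tubulin known from mature neurons and oligodendrocytes, had 152.7 TPM in pool 1 and 174.1 TPM in pool 2, above Tubg1, Tubb6 and Tuba1c. Tube1 and Tubd1, the epsilon- and delta-tubulins of centrioles, averaged 12.7 ± 2.14 and 7.66 ± 0.247 TPM. Tuba4a, an alpha-tubulin that ends without the usual tyrosine, averaged 8.25 ± 0.396 TPM. Tubb1, the beta-tubulin of platelets and their precursors, averaged 2.58 ± 0.0778 TPM. The alpha genes Tuba8 (0.17 ± 0.0141 TPM) and Tuba3a (0.04 TPM in pool 1 and 0.12 TPM in pool 2, from 1 and 3 counts) were near the counting floor. Tuba3b and Tubal3 had no count in either pool, which allows up to 0.0896 TPM in pool 1 and 0.0972 TPM in pool 2 for Tuba3b, and 0.0709 and 0.0769 TPM for Tubal3 (3 counts per library).

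The pools were also compared by their ratio, pool 1 over pool 2, of expected counts scaled by the TMM method, over all 14989 genes with 50 or more mean counts. None of the 10 tubulin genes differed 2-fold, against 0.994% of all genes compared, and 2 differed by 25% or more, against 11.4%. The 11.4% includes genes of low count, whereas each of the 10 had more than 1000 mean counts. Among genes with 1000 or more mean counts, the 95th percentile of the absolute log2 ratio was 0.239. The median log2 ratio of the 10 genes was 0.02, and that of all genes compared was 0.00. For Tuba1a, Tubb5, Tubb3, Tubb2b and Tubg1 the log2 ratios lay between -0.01 and 0.06, and the counting intervals of the pools overlapped. Counting intervals were apart for the 5 others. Tuba1b (0.06), Tubb2a (-0.08) and Tubb4b (0.11) nevertheless differed by little.

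The exceptions were Tuba1c and Tubb6, which are also the least abundant. Tuba1c had 2067 expected counts in pool 1 and 1534 in pool 2, a log2 ratio of 0.32, higher in pool 1. Tubb6 had 1469 expected counts in pool 1 and 1799 in pool 2, a log2 ratio of -0.40, or 1.32-fold higher in pool 2. Of the 7134 genes with 1000 or more mean counts, 98.1% differed less than Tuba1c and 98.9% less than Tubb6. These are differences between 2 libraries, with no test.

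Markers of other cell types moved with the pools. All 6 skeletal muscle markers were higher in pool 2, with a summed level of 34.0 TPM in pool 1 and 169 TPM in pool 2, and a median log2 ratio of -2.34. All 5 mesenchyme markers were higher in pool 2, with 968 TPM in pool 1 and 1279 TPM in pool 2, and had a median log2 ratio of -0.32. The 4 hindbrain markers were higher in pool 2 as well, with a median of -0.36. The 5 erythroid markers summed to 12667 TPM in pool 1 and 9913 TPM in pool 2, and 4 of the 5 were higher in pool 1. None of these markers was at 0. The 8 markers of postmitotic neurons summed to 2300 TPM in pool 1 and 2443 TPM in pool 2, and 6 of them were higher in pool 2. The 8 progenitor markers summed to 2782 TPM in pool 1 and 2569 TPM in pool 2, and 7 of them were higher in pool 1. The 3 markers of ciliated cells and choroid plexus summed to 347 TPM in pool 1 and 406 TPM in pool 2, and 2 of them were higher in pool 2. The part of these differences in those of Tubb6, Tuba1c, Tubb2a and Tubb4b was not tested.

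The direction of small differences depended on the scaling. Spike-in RNAs held 7.97% of all TPM in pool 1 and 10.3% in pool 2. Scaling by the spike-ins moved the median log2 ratio of all genes compared to 0.37 and that of the 10 tubulin genes to 0.40. On that scale 9 of the 10 genes were higher in pool 1, against 7 of 10 under TMM, because Tubb2a (0.29) and Tubg1 (0.37) changed sign. Tubb6 then stood at -0.02 and Tuba1c at 0.70.

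**Figure D3:**
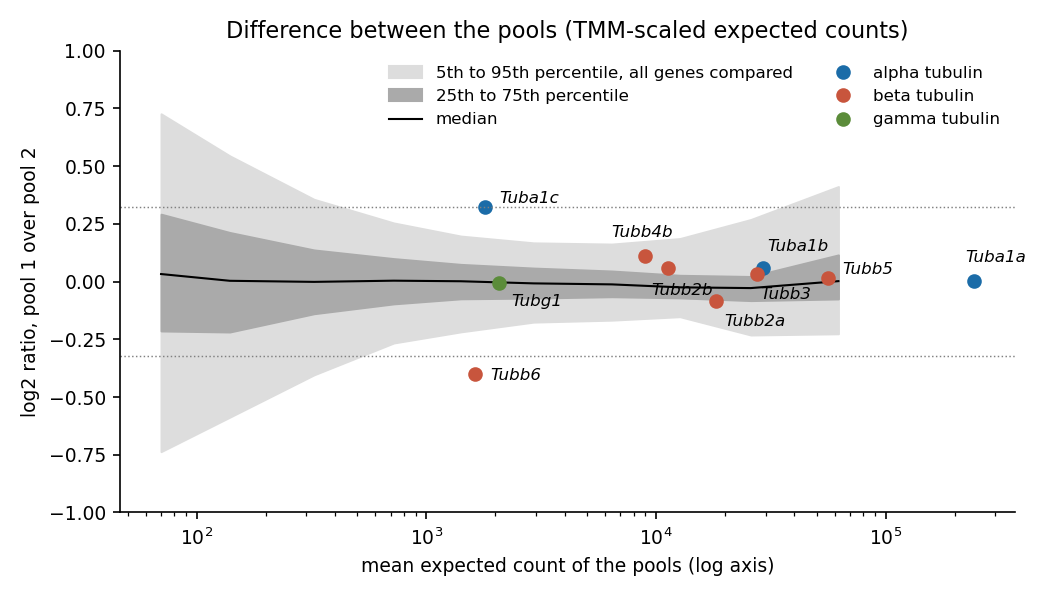
The log2 ratio of pool 1 over pool 2 for each tubulin gene against its mean expected count (log axis), with the spread of all 14989 genes compared as grey bands and the limits of a 25% difference as dotted lines. Tubb6 (-0.40) and Tuba1c (0.32) lie outside the 5th to 95th percentile band of genes of like count. The other 8 genes lie within the band or, for Tuba1a, near 0 to the right of where the drawn band ends.

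Each of the 8 genes with 2 or more annotated transcripts was expressed almost wholly as 1 transcript. In the M21 transcript tables, Tuba1a and Tubb2a have 1 annotated transcript, which fixes their share, and the 8 others have 2 to 4. In all 8, the top transcript held 90% or more of the gene's TPM in both pools, against 27.4% of the 1465 protein-coding genes with 2 or more transcripts and 100 TPM or more. The levels of the sets differ, since 3 of the 8 (Tuba1c, Tubb6 and Tubg1) are below 100 TPM. The sets were also not matched for the number of annotated transcripts, which is 4 for Tubb5 and 2 for the rest of the 8. A high top share is easier to reach with few transcripts, so the comparison is not like for like. The lowest top share was that of Tuba1c, where the protein-coding transcript held 96.9% in pool 1 and 94.97% in pool 2. The rest of Tuba1c was a retained-intron transcript of 781 bases, at 4.07% ± 1.36. In Tuba1b a retained-intron transcript of 526 bases held 2.94% ± 0.484, and the protein-coding transcript 97.1% ± 0.484. The top Tubb5 transcript held 98.2% ± 0.0929, and its 2 retained-intron transcripts held 0.955% ± 0.00146 and 0.436% ± 0.0106. The second protein-coding Tubb3 transcript had no count in either pool. In Tubb2b, Tubb4b, Tubb6 and Tubg1 the top transcript averaged 99.2% to 99.8%. The main transcript has 4 exons in every alpha and beta gene and 11 in Tubg1.

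The same libraries were also quantified on GENCODE M4, and 2 of the 10 levels moved more than the rest. TPM on M21 over M4 had a median of 0.952 over 14140 genes, and for Tubb3, Tubb4b, Tubb5 and Tubg1 it was 0.950. For Tuba1a the ratio was 0.860: it averaged 7416 ± 32.4 TPM on M21 and 8626 ± 32.5 TPM on M4. Its expected counts were nearly the same (ratio 1.00). Its effective length on M21, taken from pool 1, was 1.10 times that on M4, with a top transcript of 1803 bases on M21 and 1647 bases on M4. For Tubb2b the TPM ratio was 0.800, with a count ratio of 0.959 and an effective length ratio of 1.14 (pool 1). Its top transcript had 2182 bases on M21 and 1922 bases on M4. A TPM ratio below 0.9 was found in 5.08% of the genes compared. Tuba1c was the only one of the 10 with a higher TPM on M21 (ratio 1.03, count ratio 1.06).

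**Figure D4:**
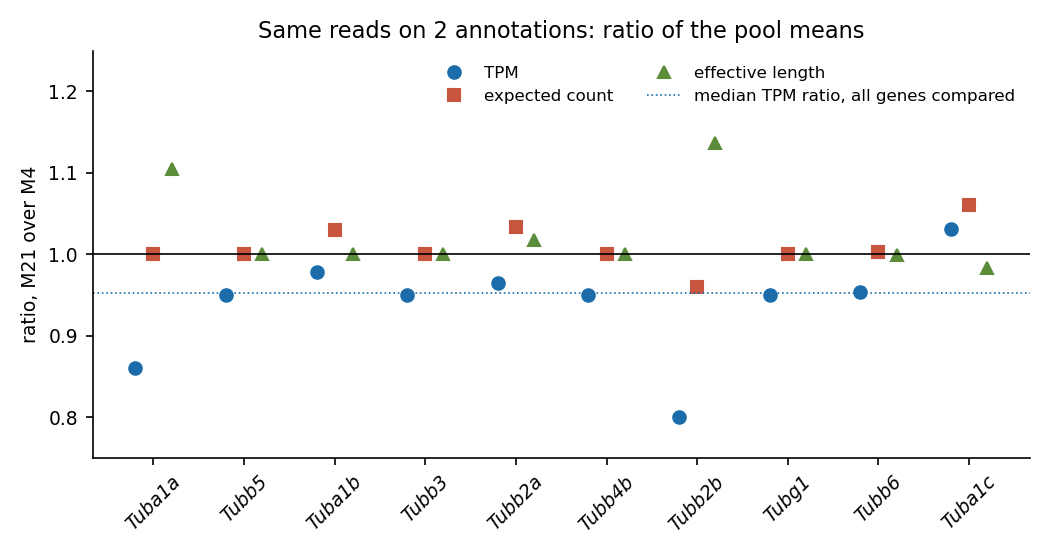
Ratio of M21 over M4 for TPM (circles), expected count (squares) and effective length (triangles) of each tubulin gene. TPM and expected count are from means over both pools, and effective length is from pool 1. The solid line is 1 and the dotted line is the median TPM ratio of 14140 genes (0.952). Tuba1a (0.860) and Tubb2b (0.800) lie below the other TPM ratios, and both have effective length ratios above 1.

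How reads divide among the close relatives is uncertain, and the genes differ in how far this reaches. Of all stretches of 100 bases in the main transcript, 73.0% in Tuba1b, 65.8% in Tuba1a and 53.4% in Tuba1c also occur in a transcript of another gene. Tuba1b shares 48.6% of its stretches with Tuba1c, and Tuba1a shares 26.3% with Tuba1b. Tubb2a shares 36.9% with any other gene and Tubb2b 27.7%, mostly with each other, and Tubb4b shares 30.6%, mostly with a processed pseudogene. Tubg1 shares 4.11%, all with Tubg2. Tubb3, Tubb5 and Tubb6 share none of this length. The read length is not given in the labels, and shorter stretches were not compared. The deposited posterior SD, a measure of how uncertain the estimated count is, was 2.55% of the count in pool 1 and 2.74% in pool 2 for Tuba1c. It was under 0.6% for every other gene in both pools and 0 for Tubb3, Tubb5 and Tubb6.

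Few reads were assigned to tubulin pseudogenes. The 8 alpha pseudogenes together had 651 expected counts in pool 1 and 583 in pool 2, or 0.229% and 0.222% of the counts of the 3 alpha genes. The 4 beta pseudogenes had 0.0136% of the counts of the 6 beta genes in pool 1 and 0.0189% in pool 2. The 5 pseudogenes with the most counts were all of the alpha class. Gm14150 had 240.6 expected counts in pool 1 and 190.8 in pool 2, and Gm3756 had 140.2 and 125.0. Gm6682 had 93.5 and 84.1, Gm3226 had 68.7 and 86.3, and Gm17383 had 65.3 and 51.5. Some genes overlap the tubulin genes themselves, and are named for that reason. Gm49450 overlaps Tuba1a by 3715 bases and Tuba1b by 2429 bases on the same strand, and Gm20388 spans Tubb3 on the same strand. Both were listed at 0 in both pools. Gm41396, antisense to Tuba1b over 241 bases, had 33 and 17 counts in pools 1 and 2. Fam166a, which overlaps Tubb4b by 121 bases on the other strand, had 3.02 and 2.02 expected counts. No source used here says whether reads were counted by strand, so such reads cannot be told apart.

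The genes that make, anchor and modify tubulin were broadly expressed. Over 9 lists, counting the other tubulins above, 74 of 82 genes reached 1 TPM in both pools, against 61.8% of protein-coding genes. No list gene at 50 or more mean counts differed 2-fold between the pools, against 0.994% of all genes compared. With so low a share, a count of 0 says little about the lists. The median log2 ratio of a list lay between -0.09 and 0.03.

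New tubulin chains are passed by prefoldin to the CCT chaperonin, a ring that folds actin and tubulin, and then to tubulin cofactors that assemble the dimer. All 8 CCT subunit genes were expressed, with a median of 381 TPM. The highest were Cct6a (483 ± 2.47 TPM), Cct5 (418 ± 6.82 TPM), Cct3 (415 ± 20.1 TPM) and Cct7 (401 ± 6.64 TPM). All 14 genes of prefoldin, the cofactors and autoregulation reached 1 TPM, with a median of 90.6 TPM. The highest were the prefoldin subunits Pfdn5 (283 ± 40.2 TPM) and Vbp1 (201 ± 8.95 TPM), Tbcb, a cofactor of alpha-tubulin (211 ± 3.22 TPM), and Tbca, a cofactor of beta-tubulin (176 ± 4.89 TPM). Ttc5, whose product reads the starts of new alpha- and beta-tubulin chains, is named for that reason after its value was seen. It had 81.7 TPM in pool 1 and 75.01 TPM in pool 2.

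All 17 genes of the gamma-tubulin ring complex and its recruitment were expressed, with a median of 30.9 TPM, below Tubg1. The highest was Mzt1, a small subunit of the ring (104 ± 4.41 TPM). Tubgcp4 (55.7 ± 2.77 TPM) and Tubgcp2 (52.6 ± 2.26 TPM) encode ring proteins that bind gamma-tubulin. Haus7 (51.8 ± 1.97 TPM) encodes a subunit of augmin, which recruits the ring to existing microtubules.

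Genes for enzymes that modify tubulin ranged widely in level. Of the tyrosination cycle, 4 of 4 matched genes reached 1 TPM. Vash2 (67.7 ± 6.96 TPM) and Vash1 (26.9 ± 0.325 TPM) encode enzymes that remove the last tyrosine of alpha-tubulin, Svbp (149 ± 0.332 TPM) encodes their partner, and Ttl (18.3 ± 0.262 TPM) encodes the ligase that puts tyrosine back. Atat1, which acetylates alpha-tubulin inside the microtubule, had 228.0 TPM in pool 1 and 232.8 TPM in pool 2. Sirt2 and Hdac6, which remove the acetyl group, averaged 69.6 ± 0.573 and 52.7 ± 0.219 TPM.

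Of 13 genes that add glutamate or glycine chains, 10 reached 1 TPM in both pools. Ttll1 (54.5 ± 6.77 TPM), Tpgs1 (53.0 ± 1.07 TPM) and Tpgs2 (40.6 ± 0.537 TPM) encode parts of 1 glutamylase complex, and Ttll4 (24.5 ± 4.99 TPM) encodes a separate glutamylase. The glutamylase Ttll6 and the glycylases Ttll8 and Ttll10 were under 1 TPM in both pools, with at most 11 counts in a pool. Ttll3, another glycylase of the list, is named beside them after its value was seen. It had 6.21 TPM in pool 1 and 6.81 TPM in pool 2. Of 6 genes that trim glutamates, 5 reached 1 TPM, and Agtpbp1 (28.9 ± 3.42 TPM) and Agbl5 (26.7 ± 2.28 TPM) were above Agbl3 (7.01 ± 0.205 TPM) and Agbl4 (1.39 ± 0.311 TPM). Agbl1 averaged 0.09 ± 0.0424 TPM. All 7 severing genes, whose products cut microtubules, were expressed. Spast averaged 40.5 ± 0.191 TPM, the katanin subunit Katna1 38.4 ± 2.04 TPM, and Fignl1 31.7 ± 0.290 TPM.

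**Figure D5:**
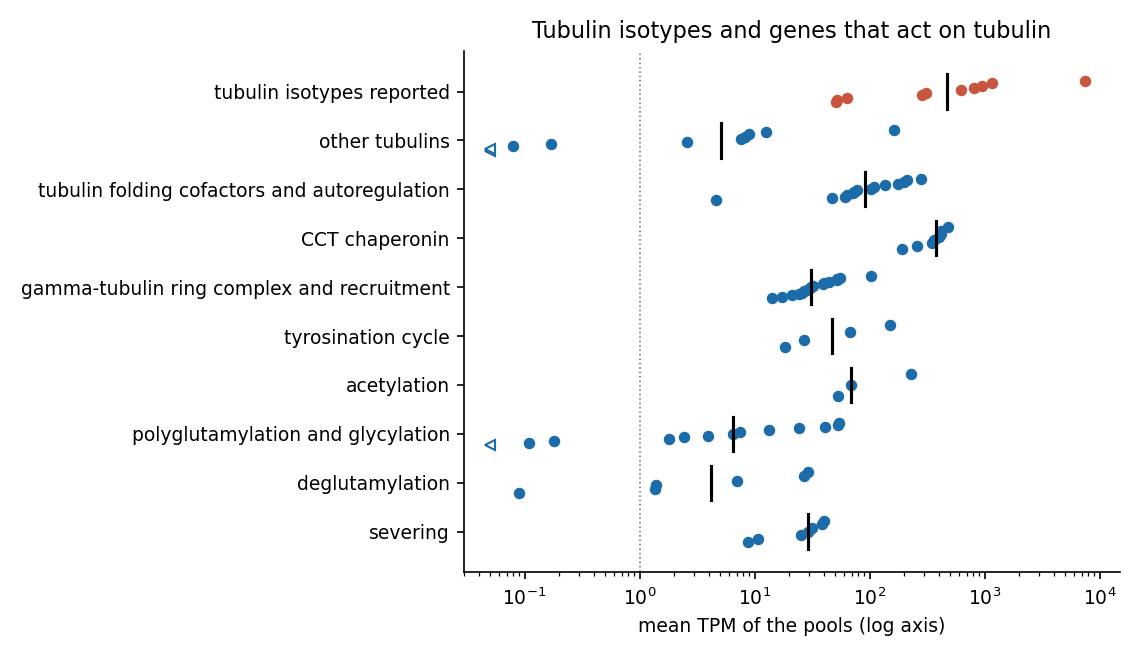
Mean TPM of both pools on a log axis for the 10 tubulin genes (top row) and for each gene of the 9 lists, with a vertical bar at each list's median and a dotted line at 1 TPM; open triangles at the left edge are genes below 0.05 TPM. The CCT genes lie together at 192 to 483 TPM, and the glutamylation, deglutamylation and other-tubulin lists reach below 1 TPM.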

How the data were processed

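PolyA-plus RNA-seq was measured in both pools from 10 ng of RNA extracted with mirVana, primed with oligo-dT, cut by Nextera tagmentation and mixed with ERCC spike-in RNAs, per the labels' protocols. Amplification from little RNA and tagmentation may bias recovery by transcript length. The authors deposited gene and transcript tables on mm10 for 2 annotations, GENCODE M21 and M4, as their read-me texts state. No source used here gives the program or its strand setting. Expected counts, as deposited, are estimates of reads per feature with no scaling for depth. TPM, as deposited, is scaled over everything listed, including spike-ins and 26248 tRNA entries. A larger spike-in share therefore leaves less of the TPM total for everything else listed. The spike-in share was larger in pool 2. By TPM, Tuba1a, Tubb2a, Tubb6 and Tubg1 were nevertheless higher there, and the rest of the 10 genes were lower. The deposited TPM lay above the deposited credible interval for 7 of the 10 genes in each pool, so those intervals are not printed. The deposited FPKM values were used only as an alternative for the order of levels.

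M21 was the main annotation, and symbols came from it. Ratios between the pools used edgeR 4.0.16 TMM scaling of rounded expected counts and a prior count of 0.5. The common coefficient of variation was 0.0858 over 18575 genes. No test was made, as the pools are replicates of 1 group. The scaling by gene counts, the log2 ratios and the common coefficient of variation were tested on simulated gene counts. The other steps were not. Isoform shares were transcript TPM over the gene's summed TPM. Stretches of 100 bases were taken from the M21 transcripts. Alternatives were M4, DESeq2 1.42.0 size factors, total and spike-in scaling, other thresholds, expected counts and leaving out each pool. The other tools were R 4.3.3, Biopython 1.88, matplotlib 3.10.9, scipy 1.17.1, pandas 2.3.3, numpy 2.4.6 and Python 3.11.15.

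The genes and lists were chosen with earlier results of these data known. Named were the 10 genes, all other protein-coding tubulins, the 4 highest genes of each list with up to 3 under 1 TPM, and the 5 pseudogenes with the most counts. Matcap1, in the tyrosination list of 5, matched no M21 symbol. Some genes and sequences that these rules name are not reported here.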

Additional observations from a re-analysis of the deposited data

How the results depend on the processing

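The counts of tubulin genes at 100 TPM or more (7) and at 2-fold between the pools (0) stayed within 1.5 times under every scaling, on M4, with posterior mean TPM and in each pool alone, where these were run. At 50 TPM the first count was 8, and at a difference of 25% or more the second was 2 (Tuba1c and Tubb6). The 8 genes with a dominant transcript were 5 of 5 on M4, which annotates 2 or more transcripts for only 5 of the genes. The share of Tuba1a in the alpha genes was 89.4% on M4, 88.6% by expected counts, and 87.9% to 88.3% with either pool left out. The share of Tubb5 in the beta genes was 35.4% on M4, 45.4% by expected counts with or without pseudogenes, 34.1% among all protein-coding beta genes, and 35.7% to 36.0% with either pool left out. The alpha over beta ratio was 2.79 on M4, 2.47 over all protein-coding genes, 2.21 by expected counts, 2.59 with posterior mean TPM, and 2.59 to 2.60 with either pool left out. Expected counts are not scaled for length, so the genes with long transcripts gain. The median log2 ratio between the pools was 0.40 with spike-in scaling, where all genes move up by 0.37, and 0.02 to 0.03 under the other settings. Ordered by FPKM, all 10 genes kept their places, on M4 8 did, and by expected counts 6 did. Of the 82 list genes, 74 reached 0.5 TPM, 60 reached 10 TPM and 73 reached 1 TPM on M4. Tubb4b and Tubb2b changed places on M4 and by expected counts, as did Tubb6 and Tuba1c by expected counts, and the log2 ratios of Tubb2a and Tubg1 changed sign with spike-in scaling. The alternatives for the alpha over beta ratio, the 95% limit for isoforms, the posterior mean shares and the median without Tubb6 were chosen after seeing the data. No paired analysis was possible because the series has 1 group. Depth limits Tuba3a, Tuba3b, Tuba8, Tubal3, Agbl1, Ttll6 and Ttll8, each with under 10 counts in both pools, and Ttll10, with 11 and 3 counts.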
